A study of Mus musculus with 15 samples.

Results

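The 8 genes described here are the proneural and neuronal basic helix-loop-helix (bHLH) transcription factors Neurog1, Neurog2, Neurod1, Neurod2, Neurod4, Neurod6, Nhlh1 and Nhlh2. They were taken from a table of 44260 genes by a rule that uses only their names, and all 8 reached the minimum mean of 10 that put 15985 genes under test. RNA was read from 3 libraries of cerebral cortex organoids at day 12, a time that comes from the name of the table. The organoids were grown from epiblast stem cell lines called SpretB6. These carry 1 copy of the autosomes from C57BL/6J (B6) and 1 from Mus spretus (Spret), so each autosomal gene is read once per allele in a library. Tested X-linked genes gave almost no Spret values, at most 0.0512% in a library. The libraries, titled SpretB6_C1, SpretB6_C2 and SpretB6_C3, are called libraries 1 to 3. No label says whether they came from separate cultures or animals, and the spread behind the p-values may therefore be technical. No treatment separates them, and the comparison is between the alleles within a library. The 12 induced pluripotent stem cell samples of the series were not analysed here.

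In the developing cortex, neurogenins switch progenitors toward the neuronal fate, Neurod factors act in intermediate progenitors and young excitatory neurons, and Nhlh factors are found in newly born neurons. These proteins bind DNA at E-boxes, short motifs that begin with CA and end with TG, as dimers with broadly expressed E proteins. Id proteins sequester the E proteins, and Hes and Hey factors, which Notch signalling induces, repress proneural genes. In a hybrid line both alleles of an autosomal gene are read from the same cells.

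The alleles of these factors did not lean to a common side. Neurog2 was higher from B6 by 1.48-fold, Neurod1 higher from Spret by 1.38-fold and Neurod6 higher from B6 by 1.09-fold, whereas the other 5 factors did not pass the test. By limma with Benjamini-Hochberg adjustment over all tested genes, 3 of 8 factors were called, 37.5% against 30.4% of all 15985 genes. Toward Spret the count was 1 of 8, against 7.56% of all genes, and toward B6 it was 2 of 8, against 22.8%. These backgrounds include 438 X-linked genes, all higher from B6, whereas the 8 factors are autosomal. Among the 15456 autosomal genes tested, 28.4% were called, 1202 genes toward Spret and 3193 toward B6. The share of members called was near the background. Their log2 ratios (Spret over B6) had a median of -0.07, against -0.13 over 15456 autosomal genes tested. When each library was centred on its autosomal median, which removes a shift of -0.13, -0.13 and -0.12 in libraries 1, 2 and 3, the called members were 2 toward Spret and 1 toward B6. Over all genes 28.8% were then called, 12.9% toward Spret and 15.9% toward B6, compared with 1209 genes toward Spret and 3643 toward B6 without centring.

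**Figure D1:**
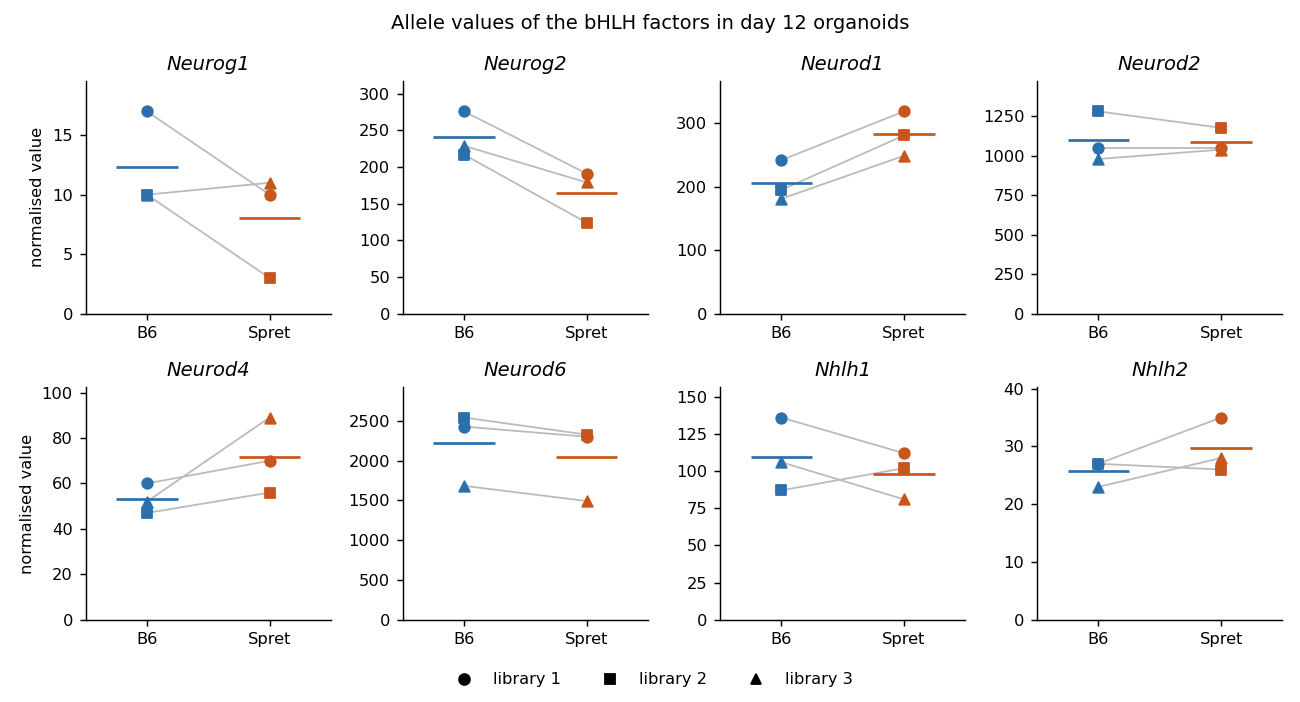
Normalised values of the 8 factors from the B6 allele (blue) and the Spret allele (orange), on linear axes that start at 0. Each symbol is a library, grey lines join the alleles of a library and bars give the mean; all 3 lines fall for Neurog2 and Neurod6 and all 3 rise for Neurod1 and Neurod4.

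The promoter sequences of the 3 called factors are shown because E-boxes are the sites through which this family acts, also on its own members. Each run holds the 250 bases before the RefSeq start of the gene in the reference mouse genome (GRCm38.p6), written 5' to 3' on the strand of the gene, with E-boxes in capitals. The motif searched was CANNTG, which is its own reverse complement, so both strands were searched at once. All 8 factors matched an entry. RefSeq starts can differ from the annotated gene positions given below, and distances of E-boxes are to the RefSeq start. The Neurod1 window ends at 79456637, past the annotated start at 79456751, so its last bases lie inside the annotated gene. The Nhlh2 window, not printed, likewise ends at 102010144, past the annotated start at 102010076.
Neurog2, chr3:127632886-127633135, plus strand: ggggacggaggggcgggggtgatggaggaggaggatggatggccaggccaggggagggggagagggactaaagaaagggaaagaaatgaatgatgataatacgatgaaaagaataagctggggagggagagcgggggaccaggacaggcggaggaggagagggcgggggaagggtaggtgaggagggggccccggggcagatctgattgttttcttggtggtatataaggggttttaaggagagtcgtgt
Neurod1, chr2:79456637-79456886, minus strand: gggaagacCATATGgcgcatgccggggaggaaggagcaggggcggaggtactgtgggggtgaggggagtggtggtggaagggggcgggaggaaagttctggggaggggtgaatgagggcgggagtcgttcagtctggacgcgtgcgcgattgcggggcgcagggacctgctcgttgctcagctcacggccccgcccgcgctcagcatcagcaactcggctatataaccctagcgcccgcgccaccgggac
Neurod6, chr6:55681264-55681513, minus strand: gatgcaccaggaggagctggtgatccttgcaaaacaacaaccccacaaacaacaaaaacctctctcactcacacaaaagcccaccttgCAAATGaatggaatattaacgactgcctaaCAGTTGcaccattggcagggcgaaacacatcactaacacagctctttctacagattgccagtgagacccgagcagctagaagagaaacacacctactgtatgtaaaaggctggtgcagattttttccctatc

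The Neurog2 window held 0 E-boxes. That of Neurod1 held 1, CATATG, beginning 242 bases before the start. Neurod6 held 2, CAAATG and CAGTTG, beginning 162 and 132 bases before the start. Of the others, Neurod2 held 3, Nhlh2 2, Nhlh1 1, Neurog1 0 and Neurod4 0 in the windows of both its starts. Among 32851 windows of the same length, 66.2% held at least 1 CANNTG, with a mean of 1.16 each. CAGATG or its reverse complement CATCTG, forms of the motif that CANNTG includes, were found before Neurod2, Nhlh1 and Nhlh2, and in 14.4% of all windows. The Spret sequence of these windows was not analysed here, and a match is a description of the letters only.

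Neurog2, the main proneural factor of dorsal cortical progenitors, lies on chromosome 3 (127633135 to 127635631, GRCm38, plus strand) with its coding sequence in 1 exon of 2. It read 276, 217 and 229 from B6 in libraries 1, 2 and 3 and 191, 124 and 179 from Spret. Every B6 value was above every Spret value. Such a separation, in either direction, was seen for 2 of the 8 factors and for 25.9% of all tested genes. The Spret share of the gene's values was 40.9%, 36.4% and 43.9%, a mean of 40.4% ± 3.78 (SD, n = 3). The log2 ratio was -0.56 ± 0.11 (SE, limma adjusted p = 0.00108) and was below 0 in 3 of 3 libraries. Of the autosomal genes tested, 17.4% had a lower ratio.

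Neurog1, the close relative that shares the proneural role in the early cortex and in sensory ganglia, lies on chromosome 13 (56250478 to 56252163, minus strand) in a single exon. It was close to the limit of the test, with a mean of 10.2 over the 6 allele columns. It read 17, 10 and 10 from B6 and 10, 3 and 11 from Spret, with overlapping values. The ratio was -0.68 ± 0.41 (SE, limma adjusted p = 0.228), below 0 in 2 of 3 libraries. Its ratio had the largest size among the 8 and also the largest SE, and the size rests on library 2: without that library it was -0.29, nearer to 0 than the ratios of Neurog2, Neurod1 and Neurod4, and without library 3 it was -1.09. Counting alone, from the read numbers estimated for these libraries (8.65 to 16.4 per allele, except 7.84 B6 and 2.35 Spret reads in library 2), would give single ratios an SD of 0.736 on average, against an observed SD of 0.793. A difference of the size seen for Neurog2 was therefore not detectable at this depth.

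Neurod1, which follows the neurogenins in cells leaving the cycle, lies on chromosome 2 (79452521 to 79456751, minus strand) with 2 exons. It read 242, 195 and 181 from B6 and 319, 281 and 249 from Spret. The lowest Spret value was above the highest B6 value. The Spret share was 56.9%, 59.0% and 57.9%, a mean of 57.9% ± 1.09 (SD, n = 3), the narrowest spread among the factors apart from Neurod6. The log2 ratio was 0.46 ± 0.09 (SE, limma adjusted p = 0.00116), above 0 in 3 of 3 libraries, and 91.1% of autosomal genes tested had a lower one. The annotation places 2 other genes over Neurod1. Cerkl, a ceramide kinase-like gene on the same strand, shares 201 of the 2729 exonic bases, and the lincRNA Gm26755 on the opposite strand shares 154. Cerkl itself read 31.7 ± 5.03 from B6 and 30.7 ± 2.31 from Spret (SD, n = 3). Strand cannot separate reads of Neurod1 and Cerkl over their shared bases. The sources used here do not give the use of strand in counting, so reads of Neurod1 and Gm26755 over the shared bases cannot be told apart either. No other factor of the 8 overlaps an annotated gene.

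Neurod4, a factor of neuronal commitment in brain and retina, lies on chromosome 10 (130268152 to 130280240, minus strand). It read 60, 47 and 52 from B6 and 70, 56 and 89 from Spret. The Spret value was higher in each library, but the columns overlapped. The ratio was 0.41 ± 0.18 (SE, limma adjusted p = 0.107), and the largest single ratio, 0.76, came from library 3. It passed the test with centred ratios, at 0.53 ± 0.18 (limma adjusted p = 0.0409), while its adjusted p under the other settings lay between 0.0829 and 0.537.

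Neurod2 and Neurod6, factors of postmitotic excitatory neurons, were the most abundant, and their alleles differed little. Neurod2 on chromosome 11 (98325415 to 98329648, minus strand) read 1046, 1279 and 978 from B6 and 1046, 1175 and 1037 from Spret. The alleles were equal in library 1 and leaned to B6 in library 2 and to Spret in library 3. Its ratio was -0.01 ± 0.05 (SE, limma adjusted p = 0.888). Neurod6 on chromosome 6 (55677822 to 55681263, minus strand) read 2429, 2543 and 1684 from B6 and 2301, 2328 and 1493 from Spret. B6 was higher within each library although the columns overlapped, because library 3 was low for both alleles. The ratio of -0.13 ± 0.04 (SE, limma adjusted p = 0.0322) was that of the autosomal median. After centring it was 0.00 ± 0.04 (adjusted p = 0.969), and leaving out any library also ended the call (adjusted p = 0.0753 to 0.145).

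Nhlh1 and Nhlh2, compact bHLH factors of nascent neurons, did not pass the test. Nhlh1 on chromosome 1 (172052292 to 172057573, minus strand) read 136, 87 and 106 from B6 and 112, 102 and 81 from Spret, a ratio of -0.14 ± 0.15 (SE, limma adjusted p = 0.5). It was lower from Spret in libraries 1 and 3 and higher in library 2. Nhlh2 on chromosome 3 (102010076 to 102015492, plus strand) read 27, 27 and 23 from B6 and 35, 26 and 28 from Spret. Its ratio was 0.19 ± 0.26 (SE, limma adjusted p = 0.608), above 0 in 2 of 3 libraries. The values of both factors overlapped between alleles.

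**Figure D2:**
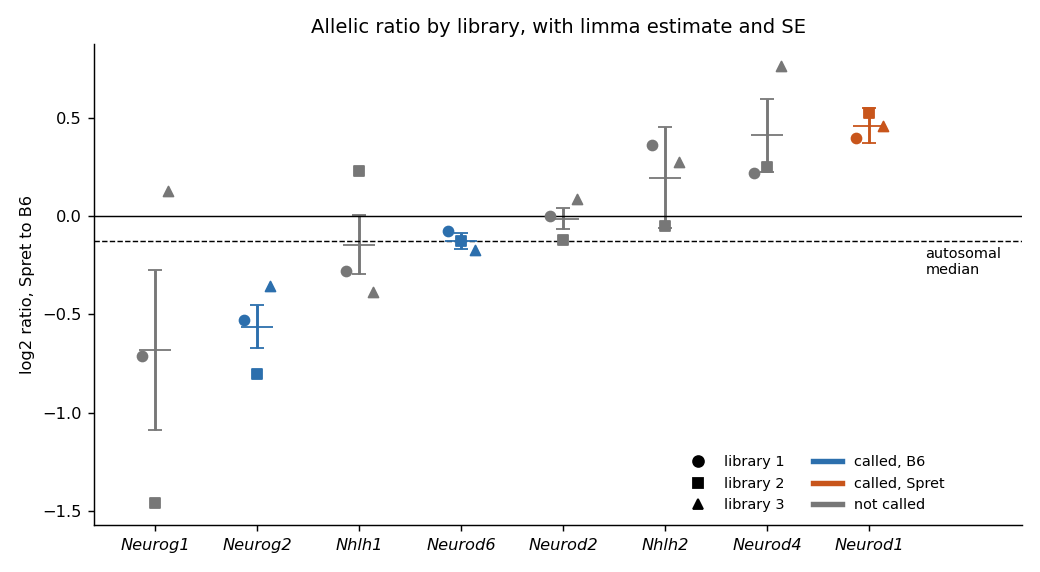
Log2 ratio of Spret to B6 for each factor, ordered by size: symbols are the 3 libraries, and the bar with whiskers is the limma estimate with its SE. The solid line marks equal alleles and the dashed line the autosomal median of -0.13, on which Neurod6 lies; Neurog2 and Neurod1 stand on opposite sides of both lines in all 3 libraries.

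Relatives were compared within libraries, where the difference of their ratios is free of any shift of the whole library. An exact sign-flip permutation test over 3 libraries cannot give a two-sided p under 0.25. Neurod1 exceeded Neurod2 by 0.40, 0.65 and 0.37 on the log2 ratio scale, a mean of 0.47 ± 0.15 (SD, n = 3; exact permutation p = 0.25). Neurod6 minus Neurod2 gave -0.08, -0.01 and -0.26, a mean of -0.11 ± 0.13 (exact permutation p = 0.25). The sign was the same in 3 of 3 libraries, but library 2 was close to 0. Neurog2 minus Neurog1 had a mean of 0.12 ± 0.57 (exact permutation p = 0.75) and Nhlh2 minus Nhlh1 one of 0.34 ± 0.54 (exact permutation p = 0.5), and both changed sign between libraries. Of 3 comparisons added after the values were seen, Neurod1 exceeded Neurog2 by 0.93, 1.33 and 0.81, a mean of 1.02 ± 0.27. The ratio of Neurod1 was above that of Neurod6 by 0.59 ± 0.10, and that of Neurod4 above that of Neurog2 by 0.97 ± 0.20 (SD, n = 3). The exact permutation p = 0.25 of these 3 is the smallest the design allows, and over all 7 comparisons none could pass a threshold of 0.05.

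Summed per family, Neurog factors came from Spret at 40.7%, 35.9% and 44.3% in libraries 1, 2 and 3, and Neurod factors at 49.7%, 48.6% and 49.8%. Nhlh factors stood at 47.4%, 52.9% and 45.8%. The Neurog share was the lowest of the 3 families in every library, and is set mainly by Neurog2, which holds most of its values. Neurog1 alone came from Spret at 37.0%, 23.1% and 52.4%. All autosomal values together came from Spret at 47.7%, 47.8% and 47.9%. The Neurod share is set mainly by Neurod6 and Neurod2, which hold most of its values.

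Shared sequence between relatives could split reads, so identical runs in the coding sequences were measured. The longest was found between Neurog1 and Neurog2, with 26 bases from the part that encodes the DNA-binding basic region, and the next between Neurod1 and Neurod2, with 25 bases from the part that encodes the second helix. They are shown because they bound the stretch that a read can match exactly in both members.
Neurog1 and Neurog2: cgcgagcgcaaccgcatgcacaacct
Neurod1 and Neurod2: tggccaagaactacatctgggctct
Nhlh1 and Nhlh2 shared 20 bases at most, and no pair of whole transcripts shared a longer run than 26. The sources used here give no read length.

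The levels of the factors differed more widely than their allelic ratios. To set genes side by side, both alleles were summed and divided by the length of annotated exon. Reads without a variant carry no allele, so these levels also depend on how many variants each gene holds. Neurod6 was highest, at 1981 ± 437 normalised values per kb of exon (SD, n = 3), then Neurod2 at 696 ± 74.6, Neurog2 at 182 ± 28.3 and Neurod1 at 179 ± 24.4. Nhlh1 followed at 84.4 ± 14.1, Neurod4 at 37.3 ± 5.85, Neurog1 at 12.1 ± 4.17 and Nhlh2 at 10.2 ± 1.08. The values of neighbours in this order were apart in all libraries except for Neurog2 and Neurod1, and for Neurog1 and Nhlh2, which overlapped. Neurod6 thus stood 2.85 times above Neurod2, and Neurod2 3.82 times above Neurog2.

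**Figure D3:**
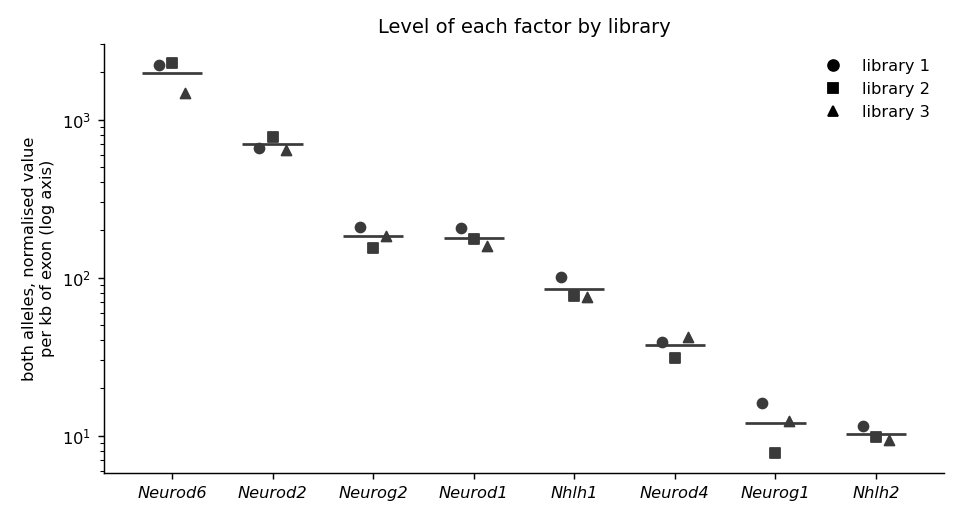
Level of each factor as the sum of both alleles per kb of annotated exon, on a log axis, with 1 symbol per library and a bar at the mean. The order runs from Neurod6 at 1981 to Nhlh2 at 10.2; only Neurog2 with Neurod1 and Neurog1 with Nhlh2 overlap as neighbours.

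Between libraries the factors moved together only in part. As sums of both alleles, Neurod6 stood at 4730, 4871 and 3177 and Neurod2 at 2092, 2454 and 2015 in libraries 1, 2 and 3. Neurog2 read 467, 341 and 408, Neurod1 561, 476 and 430, and Nhlh1 248, 189 and 187. Neurod6 and Neurod2 were highest in library 2, and Neurog2, Neurod1 and Nhlh1 in library 1. Neurod6, Neurod2, Neurod1 and Nhlh1 were lowest in library 3, Nhlh1 by little, and Neurog2 was lowest in library 2. These sums were not scaled to the library totals, of which that of library 3 was the highest. The summed values of Neurod6 were 10.1, 14.3 and 7.79 times those of Neurog2. Beside these, the 8 markers of dorsal progenitors summed to 4738, 3554 and 4713. The 6 choroid plexus markers summed to 3105, 739 and 447, led by Ttr, Foxj1 and Clic6, with library 1 far above the others. Their part in the levels of the factors was not tested. In bulk RNA, fewer cells of a type and less RNA per cell cannot be told apart.

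Cells other than cortical ones also use these factors, so their markers were read. The 8 markers of cortical excitatory neurons summed to between 13612 and 15631 per library, led by Map2, Tubb3 and Bcl11b, and the 6 of intermediate progenitors to between 3198 and 3765, led by Eomes, Rnd2 and Gadd45g. The 8 retina markers summed to between 109 and 283, led by Otx2, Mitf and Nrl, and the 9 sensory placode markers to between 166 and 216, led by Eya1, Pou4f1 and Prph. Those of hindbrain and spinal cord reached 183 to 195, led by Egr2, Pax2 and Barhl1, those of mesenchyme 412 to 423, led by Dcn, Pdgfra and Prrx1, and those of hippocampus 3055 to 3423, led by Zbtb20, Lhx9 and Lef1. No marker of any list was at 0 in all libraries. Of the list for pancreatic endocrine cells, which also use Neurod1, 1 of 6 was abundant enough to test, Chga, a granule protein that neurons also make. Markers of Cajal-Retzius cells summed to between 1497 and 2422, led by Reln, and 4 of 9 ventral telencephalic markers were testable, among them Gad1 and Gad2. The tissue label names epiblast stem cells, whose defining genes were low. Pou5f1 read 57, 63 and 13 in libraries 1, 2 and 3, Nanog 1, 5 and 3, and Fgf5 12, 5 and 5, genes that were chosen after the table was seen. On the X chromosome, B6 was higher at 438 of 438 tested genes, with at most 0.0512% of the values from Spret in a library. No reverse cross was analysed here, so in the ratios above the strain cannot be told apart from the parent of origin.

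The partners, inhibitors, cofactors, upstream regulators and downstream genes of the family were described from 7 lists of 82 genes. Among the 67 tested, the Spret allele was higher for 6 and the B6 allele for 15, and 46 were not called. The called share was 31.3%, against 30.4% of all genes and 28.4% of autosomal genes. With centred ratios the counts were 9 and 11. The median ratio was -0.06. The 15 toward B6 include 1 X-linked gene, Huwe1, a ubiquitin ligase of proneural proteins, which read 0 from Spret in all 3 libraries.

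Of the 3 E proteins, the dimer partners of all 8 factors, none was called by limma. Tcf4 was the most abundant, at 6460 ± 324 summed over alleles (SD, n = 3), with a ratio of -0.08 ± 0.04 (SE, limma adjusted p = 0.118). Tcf12 had 0.13 ± 0.09 and Tcf3 0.13 ± 0.11 (adjusted p = 0.294 and 0.424). Of the 3, only Tcf4 had an unadjusted p under 0.05, and only Tcf12 was called with centred ratios, toward Spret. Among Id inhibitors, Id4 was higher from Spret (0.35 ± 0.08) and Id2 higher from B6 (-0.47 ± 0.10). Id1 was not called and Id3 was too low to test.

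Of 6 Hes and Hey factors, 3 were tested and 1 was called. Hes5, the Notch target that represses proneural genes, was higher from Spret at 1.59 ± 0.45 (SE, limma adjusted p = 0.0147). It was close to the limit of the test, with sums of 24, 7 and 32 in libraries 1, 2 and 3. The gene read 3, 1 and 13 from B6 and 21, 6 and 19 from Spret. The size of this ratio thus rests on the low B6 values of libraries 1 and 2. Hes6, a target of neurogenins that opposes Hes1, had -0.24 ± 0.10 (adjusted p = 0.0949), and Hey1 0.21 ± 0.20 (adjusted p = 0.458). Of 17 other neural bHLH factors, 6 were tested. Bhlhe22, a factor of cortical neurons, was the most abundant at 2701 ± 155 and was not called (-0.06 ± 0.05, adjusted p = 0.362).

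Of 9 cofactors, 1 was higher from Spret and 2 from B6. Cbfa2t2, a corepressor, had 0.36 ± 0.07, and Lmo4, a LIM-only adaptor that joins Neurog2 complexes, had -0.57 ± 0.10. Crebbp and Ep300, acetyltransferases recruited by these factors, were close to equal, at 0.04 ± 0.06 and -0.01 ± 0.07 (limma adjusted p = 0.653 and 0.9). Among 30 downstream genes, 2 favoured Spret and 9 favoured B6, with a median of -0.13, the autosomal median. Sstr2, a somatostatin receptor of intermediate progenitors and neurons, had 0.99 ± 0.10 toward Spret. Plxna2, a semaphorin receptor, had -0.16 ± 0.04 and the neuronal tubulin Tubb3 -0.43 ± 0.04, both toward B6. Insm1, a zinc finger factor of intermediate progenitors, was named after its value was seen and had the lowest ratio of this list, -1.13 ± 0.12. With centred ratios the list counted 3 toward Spret and 5 toward B6.

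Of 13 regulators of neurogenins, 1 was higher from Spret and 2 from B6, of which 1 is Huwe1. Sox2, which keeps progenitors undifferentiated, had 0.58 ± 0.16 toward Spret. Sox11, a factor of newborn neurons, had -0.42 ± 0.03 toward B6, and its relative Sox4 had 0.08 ± 0.04 and was not called (limma adjusted p = 0.121). Pax6, a direct activator of Neurog2, had -0.28 ± 0.12 (adjusted p = 0.0875). Of the pathway genes, those whose ratios in the 3 libraries lay nearest to Neurog1, the factor with the ratio of largest size, were Bhlhe41, Rnd2 and Lmo4, at Euclidean distances of 0.928, 0.985 and 1.02 on the log2 scale. Neurog1 was the reference only through library 2, and with a counting SD of 0.736 for its single ratios these distances describe the values and no more.

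**Figure D4:**
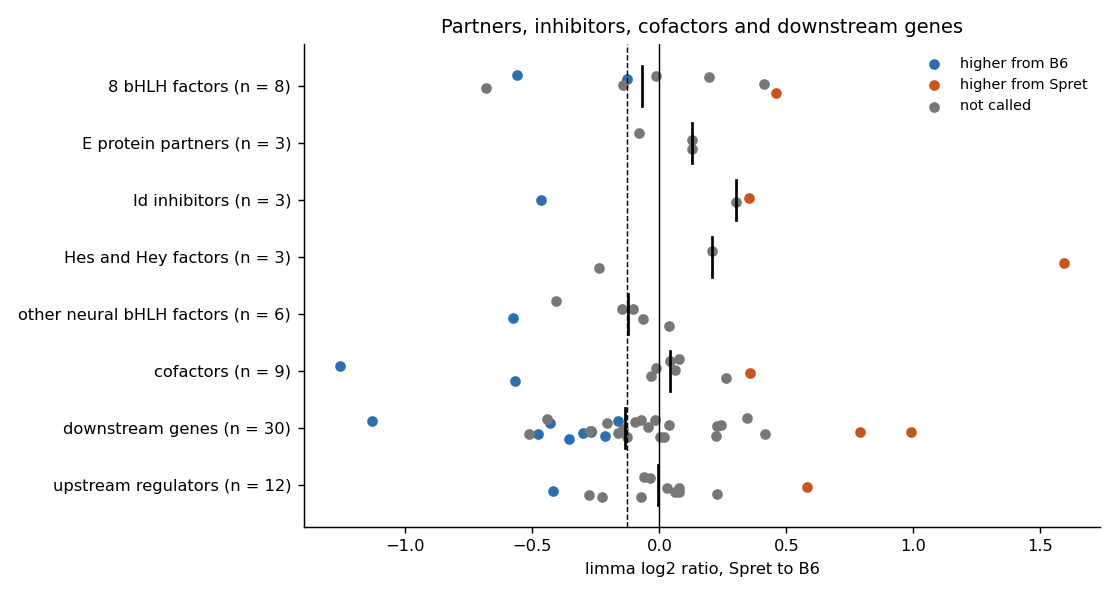
Limma log2 ratio of Spret to B6 for the 8 factors and for the autosomal tested genes of each list, coloured by call, with a black bar at each median. The solid line marks equal alleles and the dashed line the autosomal median; called genes lie on both sides in the lists of Id inhibitors, cofactors, downstream genes and upstream regulators.

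Genes beside a factor share its chromosome copy, so their ratios were read within 500 kb of its start. Around Neurog2, 17 genes were tested, with 5 higher from B6, 1 from Spret and a median ratio of -0.52. Those 5 had mean B6 values from 23.7 (Fam241a) to 137 (Gm42972). The neighbours with the highest values, Ank2 and Ap1ar, were near equal, at 0.03 ± 0.04 and -0.01 ± 0.10 (limma adjusted p = 0.621 and 0.955). The median therefore does not describe the most abundant neighbours. The nearest on the sides of Neurog2 were Zgrf1 at 79.6 kb (-0.50 ± 0.19, limma adjusted p = 0.0531) and Alpk1 at 147 kb, which was higher from Spret (0.66 ± 0.13). Around Neurod1 there were 3 tested genes, 0 called by limma and 0 with an unadjusted p under 0.05, with ratios from -0.19 to 0.08. Around Neurod6 there were 4, of which 3 were higher from B6, including Adcyap1r1, a receptor for the peptide PACAP, at 229 kb (-0.33 ± 0.09) and Itprid1 at 156 kb (-1.27 ± 0.32). The ratio of Neurod6 was closer to 0 than that of each of these 4 neighbours.

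Neurod2 lay among 26 tested genes, 7 higher from B6 and 1 from Spret, with a median of -0.02. Ppp1r1b, the nearest at 18.8 kb, was not called (-0.09 ± 0.28), and Cdk12 at 127 kb was higher from B6 (-0.27 ± 0.08). Nhlh1 had 17 tested neighbours, 4 of them higher from B6, among them Vangl2 (-0.34 ± 0.07) and Copa (-0.29 ± 0.06), the nearest on its sides. Around Nhlh2, the nearest on its sides were Slc22a15 (-0.28 ± 0.16) and Vangl1 (-0.10 ± 0.24), neither of them called (limma adjusted p = 0.191 and 0.787). Neurog1 had 4 tested neighbours, 0 called by limma and 0 with an unadjusted p under 0.05. Neurod4 had 1, Vmn2r84, not called at -0.90 ± 0.41 (limma adjusted p = 0.11), with an unadjusted p under 0.05.

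**Figure D5:**
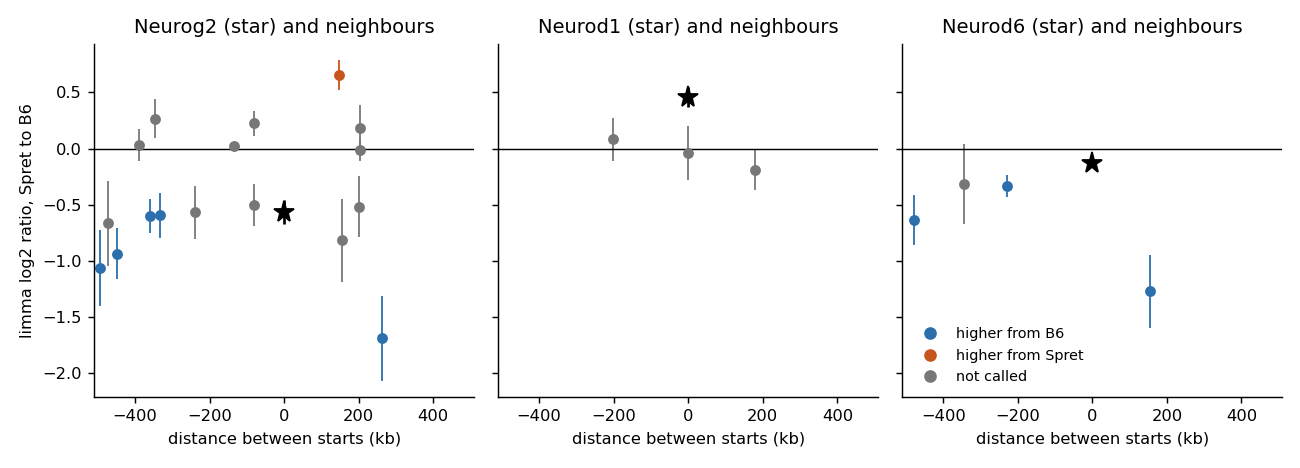
Limma log2 ratio of Spret to B6 with its SE for the tested genes within 500 kb of Neurog2, Neurod1 and Neurod6 (stars), against the distance between gene starts in kb. Neurog2 lies among genes of both directions, Neurod1 above its 3 neighbours and Neurod6 above its 4.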

How the data were processed

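The authors deposited 1 table with a B6 and a Spret column for each of 3 libraries. Its name calls the values normalised allele-specific counts; as deposited by the authors they are whole numbers, and they were handled as a score, not as counts. Libraries were depleted of ribosomal RNA, per the labels' protocols. Per the submitters' processing notes, the build was mm10; the alignment, the calling of alleles, the counting and any use of strand are not given. A bias toward the reference would add to B6 values. The members and lists were chosen with earlier results of these data known.

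Both alleles summed to 5039845, 4502664 and 5666990 in libraries 1, 2 and 3. From the whole numbers that each library uses, factors of 1.156, 1.276 and 0.672 per read were estimated by likelihood, so library 3 was read most deeply. Reads could not be recovered exactly, so no count test was used. Ratios are log2(Spret + 1) minus log2(B6 + 1), a scale that makes differences of low values smaller. The fit (R 4.3.3, limma 3.58.1, trend in intensity) took genes averaging at least 10 over the 6 columns and had terms for allele and for library, since a library's alleles share its RNA. P-values are two-sided, Benjamini-Hochberg adjusted over 15985 genes, with a threshold of 0.05. The fit was checked on simulated data. Positions are from GENCODE M21 (GRCm38, the assembly mm10 names) and promoters from RefSeq. Named were all members, the called gene of highest sum per list and direction, the 2 highest per pathway list, the 3 highest per cell type list, and the nearest tested neighbours; some results are not reported here. Alternatives were other pseudocounts and filters, centring, no library term, no trend and leaving out each library.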

Additional observations from a re-analysis of the deposited data

How the results depend on the processing

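The calls of Neurog2 and Neurod1 held with pseudocounts of 0.5 and 5, with a minimum mean of 50, with centred ratios and without any 1 library. They ended with no filter on low values (limma adjusted p = 0.119 for Neurog2 and 0.0543 for Neurod1), without the intensity trend (0.0708 and 0.0643) and without the paired term for library (0.123 and 0.154). Members called by limma, the only tool run, were 0 under each of these 3 settings, 0 toward Spret and 0 toward B6, with 3, 2 and 2 of 8 at an unadjusted p under 0.05. Centring gave 2 toward Spret and 1 toward B6. Leaving out a library left 1 toward B6 in each case, since Neurod6 lost its call, and ended the test of Neurog1 without library 1, where its mean fell under 10. Pathway genes called were 21, with 6 without the filter, 3 without the paired term, 5 without the trend and 13 to 21 without a library (13 without library 1). Over all genes 4852 were called, with 1236, 1537, 2229 and 2667 to 4001 under the same settings (2667 without library 1). No ratio of a member changed from a call on one side to a call on the other. Depth limits Neurog1 and Nhlh2 most. The cause of the lost calls was not tested.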
